A study of Rattus norvegicus with 4 samples.

Results

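The 92 genes described here are all those whose symbol begins with Kcn, the gene stem of potassium channel subunits, among 25399 genes in the deposited count matrix. They were picked by symbol alone, with no measured value. By symbol they fall into 28 pore-forming voltage-gated (Kv alpha) subunits, 10 Kv modifier subunits that form no channel by themselves, 13 regulators (Kv beta, KChIP and KCNE subunits and the like), 15 inward rectifiers (Kir), 14 tandem-pore leak channels (K2P), 8 channels gated by calcium or sodium, and 4 beta subunits of the large-conductance calcium-activated (BK) channel. The cells came from Sprague Dawley rats in 4 labelled groups of 1 library each: sciatic nerve at 8 weeks, dorsal root ganglion (DRG) at 8 weeks, sciatic nerve at postnatal day 1, and DRG at postnatal day 1. The labels give the sex as not determined. A protocol for growing Schwann cells in serum medium is attached to the samples, and whether it applies to the sequenced cells is not stated. Counts are unique molecular identifiers (UMIs, 1 per captured transcript) from a kit that reads transcript 3′ ends.

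A number from 1 to 4 on each cell barcode marks its library, and no label says which number is which tissue or age. The text therefore speaks of library 1 to library 4 and compares cell classes inside a library only. With 1 library per group there is no replicate test and no p-value. Intervals are exact 95% intervals that cover counting error only, and cells of a library share their source. Levels are UMIs per 1000000 UMIs of a class, summed over its cells. How much of a transcript is counted depends on its 3′ end, so levels of different genes are not ranked, and ratios between genes and shares of Kcn UMIs serve only to compare cell classes. In such sums, fewer expressing cells and less RNA per cell cannot be told apart.

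The libraries held 10542, 10087, 10256 and 10559 barcodes and between 74425958 and 97572003 UMIs. After filters on detected genes and mitochondrial share 33175 cells remained, and marker genes placed 31030 of them (93.5%) in a class, written below as glia-like, neuron-like and so on. Neuron-like cells numbered 4792 in library 2 and 3357 in library 3, with a median of 1138 and 5626 UMIs, and libraries 1 and 4 had too few to use. Glia-like cells numbered 263, 1515, 589 and 6165 in libraries 1 to 4. Mural-like cells, the pericytes and smooth muscle of vessel walls, numbered 202, 328 and 120 in libraries 2 to 4. Perineurial-like cells, from the sheath around nerve bundles, numbered 352 in library 1. Of the barcode sequences, 190 occurred in 2 libraries and 1 in 3.

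Potassium channels set the resting potential of a cell and the shape and rate of its action potentials. In myelinated axons, Kv channels of the Kcna family lie beside the node of Ranvier under the myelin, held by adhesion and scaffold proteins. In glia, the inward rectifier encoded by Kcnj10 takes up potassium released by active neurons, and it is a known feature of the satellite glia around sensory neurons. In vessel walls, Kcnj8 and the sulfonylurea receptor Abcc9 form the vascular ATP-sensitive channel.

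The start-site regions of Kcna2, Kcnj8 and Kcnj10 are shown because the results on myelin-marker glia, mural-like cells and glia-like cells describe these genes. Each runs from 250 bases before to 50 bases after the start annotated by RefSeq on build GRCr8, where 62 of the 92 genes had an entry. They lie at chr2:197393280-197393579 (Kcna2, plus strand), chr4:177246499-177246798 (Kcnj8, minus strand) and chr13:87334260-87334559 (Kcnj10, plus strand). Capitals mark the GC box GGGCGG and the SOX-type words ACAAAG and ACAATG, each searched on both strands.
Kcna2: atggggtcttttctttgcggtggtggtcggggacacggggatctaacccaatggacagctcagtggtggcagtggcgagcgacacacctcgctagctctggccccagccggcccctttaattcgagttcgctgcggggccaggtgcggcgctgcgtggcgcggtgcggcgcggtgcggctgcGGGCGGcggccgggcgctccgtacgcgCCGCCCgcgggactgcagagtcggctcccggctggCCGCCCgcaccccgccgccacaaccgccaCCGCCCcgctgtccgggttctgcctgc
Kcnj8: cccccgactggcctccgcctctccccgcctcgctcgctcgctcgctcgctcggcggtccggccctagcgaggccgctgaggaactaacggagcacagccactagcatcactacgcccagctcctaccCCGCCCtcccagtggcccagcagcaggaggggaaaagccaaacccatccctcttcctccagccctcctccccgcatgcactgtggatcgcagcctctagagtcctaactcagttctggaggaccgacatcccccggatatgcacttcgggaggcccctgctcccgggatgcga
Kcnj10: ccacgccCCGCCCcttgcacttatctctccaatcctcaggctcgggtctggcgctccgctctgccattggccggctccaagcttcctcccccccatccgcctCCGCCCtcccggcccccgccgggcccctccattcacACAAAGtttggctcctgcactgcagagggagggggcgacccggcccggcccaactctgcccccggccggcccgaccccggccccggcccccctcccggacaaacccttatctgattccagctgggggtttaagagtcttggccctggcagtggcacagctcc
The Kcna2 region held 4 GC boxes, the Kcnj8 region 1, and the Kcnj10 region 2 together with 1 ACAAAG. A GC box was present in 31 of the 62 Kcn regions (50%), against 34.9% of 27457 regions of all genes. A SOX-type word was present in 12 (19.4%), against 28.6%, and TATAAA, also searched on both strands, in 2 (3.23%), against 14.3%. These counts describe letters in a window and nothing about binding.

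Across all barcodes 14 Kcn genes had under 20 UMIs in all, among them the KChIP gene Kcnip2 with none. A gene was taken as measured in a library when a class held at least 20 of its UMIs: 73 genes were measured in at least 1 library, 63 in at least 2 and 22 in all 4. Summed over the family, neuron-like cells had 1805 UMIs per 1000000 in library 2 (1793 to 1817) and 933 in library 3 (926 to 940.3). Mural-like cells had 551, 823 and 1214 in libraries 2 to 4, perineurial-like cells 403 in library 1, and glia-like cells 245, 248, 307 and 242 in libraries 1 to 4. Fibroblast-like cells ranged from 161 to 208 and endothelial-like cells from 109 to 349. Kv alpha subunits gave 58.4% and 55.8% of the Kcn UMIs of neuron-like cells in libraries 2 and 3, and 56.9, 41, 58.2 and 56.9% of those of glia-like cells in libraries 1 to 4. Kir genes gave 26.7, 73.3 and 92.2% in mural-like cells of libraries 2 to 4 and 66.4% in perineurial-like cells.

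**Figure D1:**
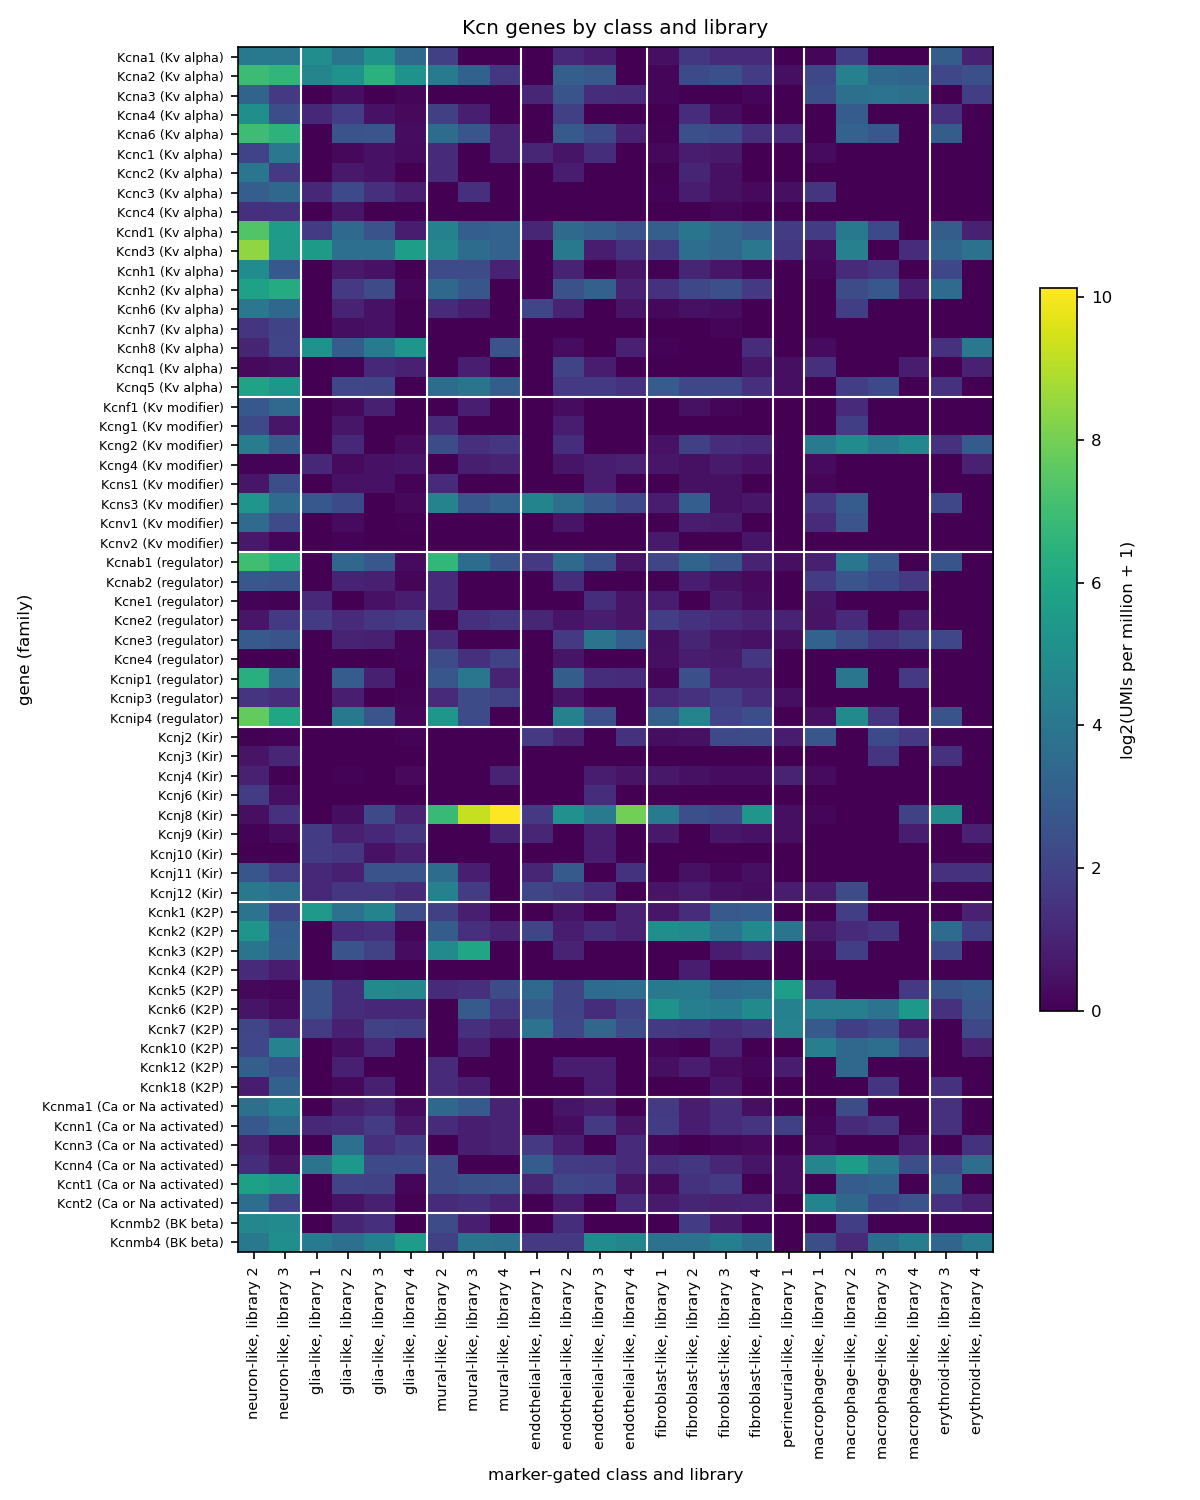
Levels of Kcn genes (rows, with their family) by cell class and library (columns), coloured by log2(UMIs per 1000000 + 1). Neuron-like columns are filled across most families, and in mural-like columns Kcnj8 stands out.

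At equal depth the number of Kcn genes seen differed less than the summed level. In 1000000 UMIs drawn at random, the expected number detected was 52.0 and 51.2 in neuron-like cells of libraries 2 and 3, 39.1, 42.1 and 23.6 in glia-like cells of libraries 2 to 4, and 20.6 in perineurial-like cells of library 1. Fibroblast-like cells had 26.0, 37.8, 35.3 and 30.6 in libraries 1 to 4, and endothelial-like cells 38.4, 36.7 and 26.4 in libraries 2 to 4. In glia-like, fibroblast-like and endothelial-like cells alike, the number was higher in libraries 2 and 3, which also held neuron-like cells, than in library 4. The neuron marker Prph had 440 and 309 UMIs per 1000000 in fibroblast-like cells of libraries 2 and 3, against 6.2 in library 4. Endothelial-like cells had 448 and 328, against 3.62, and glia-like cells 391 and 449, against 2.04. The part of neuron RNA in these numbers was not tested, and a difference between libraries has no replicate. Of the 63 genes measured in at least 2 libraries, 21 were highest in the same class each time. For 13 of them that class was neuron-like (it was for 3.26% of all genes), for 5 glia-like (3.96%), for 2 macrophage-like (5.05%) and for 1 mural-like (0.304%), while for none was it fibroblast-like (3.08%), endothelial-like (4.33%) or erythroid-like (0.0434%). A class can be counted here only for genes measured in no library that lacks it, so perineurial-like cells, used in library 1 alone, had no chance of a count, and neuron-like cells, used in libraries 2 and 3, had one only for genes measured in those 2 and no other. Of the 20 Kcn genes measured in just those 2 libraries, 13 (65%) were highest in neuron-like cells of both, a share near the 68.8% of all such genes. Mural-like cells, used in libraries 2 to 4, and erythroid-like cells, used in libraries 3 and 4, were limited in the same way. The neuron-like genes were Kcna4, Kcnc1, Kcnc2, Kcnc4, Kcnf1, Kcng1, Kcnh1, Kcnh6, Kcnh7, Kcnk4, Kcnmb2, Kcnt1 and Kcnv1. The glia-like genes were Kcne1, Kcnh8, Kcnj10, Kcnj9 and Kcnn3. For Kcn genes and all genes alike, the highest class needed no minimum of UMIs of its own, so few UMIs can decide it. In library 1, Kcnj9 was highest in glia-like cells on 2 UMIs, with 1 UMI in endothelial-like cells.

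Neuron-like cells carried more of many Kcn genes than glia-like cells of the same library. A gene was called when its level differed at least 4-fold, counting any side under 3 UMIs as 3 UMIs, in the same direction in every library where it was measured. Where a side under 3 UMIs would so come out higher, the gene counted as measured but gave no ratio and could not be called. This held for 7 of 57 measured Kcn genes in library 3, and all genes were treated alike. Of 63 measured Kcn genes, 23 were called higher in neuron-like cells (7.82% of all genes were) and 5 lower (8.64% of all genes). The median log2 ratio of measured Kcn genes was 3.02 in library 2, against 0.36 over all genes, and 1.93 in library 3, against -0.05. The higher genes were 8 Kv alpha, 5 regulator, 3 modifier, 2 Kir, 2 K2P, 2 calcium- or sodium-activated and 1 BK beta subunit. With cells over 10% mitochondrial UMIs left out, 14 were called higher.

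Among the pore-forming Kv subunits, Kcna6, a delayed rectifier subunit, had 125 and 91.6 in neuron-like cells of libraries 2 and 3, against 4.99 and 5.39 in glia-like cells (log2 4.65, 4.29 to 5.03, and 4.09, 3.31 to 5.00). Kcnh2, the ERG channel, had 54.4 and 74.4 in neuron-like cells of libraries 2 and 3, against 2.18 and 4.15 in glia-like cells. For both genes neuron-like cells were far above glia-like cells in both libraries. Kcnq5, a subunit of the M current that restrains repeated firing, had 55.5 and 40.2 in neuron-like cells of libraries 2 and 3, against 3.51 and 3.32 in glia-like cells. Kcnc1, a fast delayed rectifier subunit, had 3.08 and 15.1 in neuron-like cells of libraries 2 and 3, against 0.156 (2 UMIs) and 0.415 (1 UMI) in glia-like cells.

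Of genes tied to the fast-inactivating A current, some were called and others were not. Kcnd1, a pore gene of that current, had 166 and 46 in neuron-like cells of libraries 2 and 3, against 10.1 and 4.98 in glia-like cells (log2 4.04 and 3.21). Kcnip4, a KChIP that binds Kcnd channels, had 204 and 61 in neuron-like cells of libraries 2 and 3, against 15.9 and 5.39 in glia-like cells. Dpp6, another kind of Kcnd partner, had 253 and 84.9 in neuron-like cells of libraries 2 and 3, against 11.3 and 6.22 in glia-like cells. Kcnd3, a second pore gene, was not called, being under 4-fold in library 3: neuron-like cells had 346 and 42.5 in libraries 2 and 3 and glia-like cells 12.1 and 12 there, while glia-like cells of libraries 1 and 4 had 44.6 and 49.4. Also under 4-fold in library 3, with the floor on the glia-like side, were the A-type pore gene Kcna4, with 31.8 and 4.41 in neuron-like cells of libraries 2 and 3, against 2.57 and 0.415 (1 UMI) in glia-like cells, the KChIP gene Kcnip3, with 1.99 and 1.42 in neuron-like cells of libraries 2 and 3, against 0.78 and 0 UMIs in glia-like cells, and the Kcnd partner Dpp10, with 13.4 and 2.33 in neuron-like cells of libraries 2 and 3, against 0.78 and 0 UMIs in glia-like cells. Kcnab1, a Kv beta subunit that speeds inactivation of Kcna channels, had 128 and 81.8 in neuron-like cells of libraries 2 and 3, against 9.05 and 5.81 in glia-like cells. Barcodes with under 500 genes, which can hold free RNA, carried 149 UMIs per 1000000 of Kcnip4, 72.7 of Kcnab1, 62.1 of Kcnd3 and 53.3 of Kcnd1 in library 2. The glia-like levels of these 4 genes in that library lie below those values. In library 3 such barcodes carried 11.8 of Kcnip4, 17.7 of Kcnab1 and 10 of Kcnd1, above the glia-like levels, but 7 of Kcnd3, below the glia-like level. The part of free RNA in the glia-like levels was not tested.

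**Figure D2:**
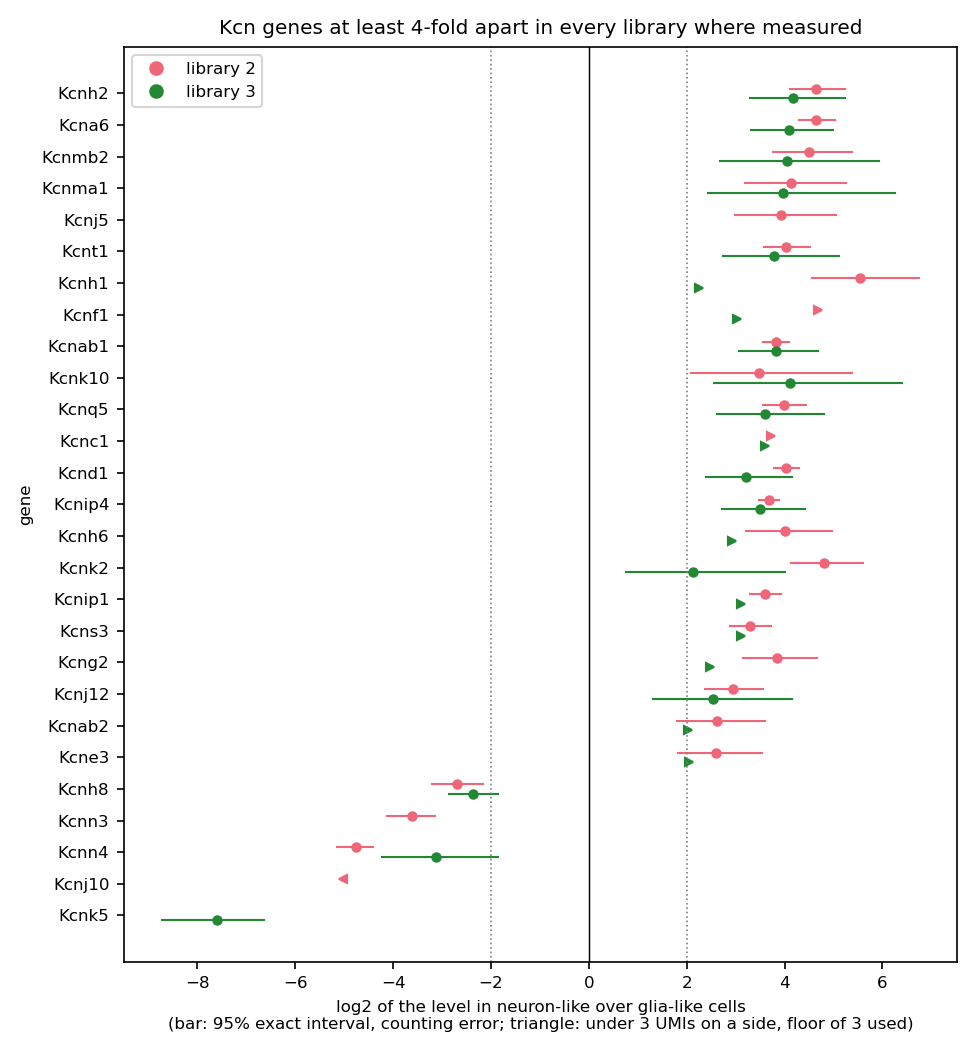
Log2 ratio of the level in neuron-like over glia-like cells (x axis) for called Kcn genes (rows), in library 2 and library 3; bars are exact 95% intervals, and markers for sides under 3 UMIs use the floor. Most genes lie right of the upper 4-fold line, and 5 genes lie left of the lower one.

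The other genes higher in neuron-like cells covered most kinds of channel. Kcnt1, a sodium-activated channel, had 52.3 and 40.1 in neuron-like cells of libraries 2 and 3, against 3.2 and 2.9 in glia-like cells. The BK pore gene Kcnma1 had 12.3 and 19.6 in neuron-like cells of libraries 2 and 3, against 0.702 and 1.24 (3 UMIs) in glia-like cells, and Kcnmb2, a beta subunit that inactivates the BK channel, had 24.9 and 27.5 in neuron-like cells of libraries 2 and 3, against 1.09 and 1.66 in glia-like cells. Pore and beta subunit were thus higher in neuron-like cells of both libraries. The leak channels Kcnk2 and Kcnk10, which respond to stretch and fatty acids, were called as well, Kcnk2 at 37.3 and 7.24 in neuron-like cells of libraries 2 and 3, against 1.33 and 1.66 in glia-like cells, and Kcnk10 at 3.47 and 21.5 in neuron-like cells of libraries 2 and 3, against 0.312 and 1.24 (3 UMIs) in glia-like cells. The modifiers Kcnf1, Kcng2 and Kcns3, the regulators Kcnab2, Kcne3 and Kcnip1, the Kv subunits Kcnh1 and Kcnh6, and the inward rectifiers Kcnj5 and Kcnj12 were called too.

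Lower in neuron-like cells were Kcnh8, Kcnj10, Kcnk5, Kcnn3 and Kcnn4. Kcnn4, a calcium-activated channel of intermediate conductance, had 1.51 and 0.429 in neuron-like cells of libraries 2 and 3, against 41.1 and 3.73 in glia-like cells (log2 -4.77 and -3.12). Kcnh8, an ELK-type voltage-gated channel, had 1.05 and 3.36 in neuron-like cells of libraries 2 and 3, against 6.79 and 17.4 in glia-like cells (log2 -2.69 and -2.37). Kcnk5, an acid-sensitive leak channel, was measured in library 3, where it had 0.143 in neuron-like cells and 27.8 in glia-like cells (log2 -7.60, -8.73 to -6.63). Of 25 listed partners of the channels and genes of potassium transport, 24 were found among the genes. In neuron-like cells 9 of 22 partners with a ratio were called higher (7.82% of all measured genes were). They included the pacemaker channels Hcn3 and Hcn4, the sodium pump beta subunit Atp1b1, and Amigo1, Cntn2, Dlg4 and Dpp6. Another 3 were lower (8.64% of all measured genes were), among them Lrrc52 and the scaffold gene Dlg1. Dlg1 had 2.19 and 1.32 in neuron-like cells of libraries 2 and 3, against 16.8 and 14.1 in glia-like cells.

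Within the neuron-like class, cells with nociceptor markers were set against cells with markers of large-fibre neurons, the touch and position sensors. Of 59 measured Kcn genes, 1 was called higher in nociceptor-marker neurons (0.454% of all genes) and 5 lower (1.68%). In library 2, 9 of 51 measured Kcn genes gave no ratio because of the floor and could not be called. Kcnip1, a KChIP, had 98.6 and 12.1 in nociceptor-marker neurons of libraries 2 and 3, against 2.48 (2 UMIs) and 0.975 in large-fibre-marker neurons (log2 3.63 in library 3). Kcns1, an electrically silent modifier subunit, was measured in library 3, with 1.01 in nociceptor-marker neurons and 38.7 in large-fibre-marker neurons (log2 -5.26, -5.69 to -4.84). The M-current subunit Kcnq3 and Kcnh5 were lower in library 3, and Kcnj4 and Kcnn3 in library 2, each on 22 UMIs or fewer per side. The large-fibre side had 52 cells in library 2 and 193 in library 3. The counts moved with the processing, from 0 to 8 higher and from 0 to 8 lower.

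Kcna1 had 17.1 in nociceptor-marker neurons and 6.2 in large-fibre-marker neurons of library 2, the second on 5 UMIs, but 6.12 in nociceptor-marker neurons and 92.5 in large-fibre-marker neurons of library 3, so its direction differed between the libraries. Kcna2 was lower in nociceptor-marker neurons of both, with 119 and 92.8 in nociceptor-marker neurons of libraries 2 and 3, against 164 and 179 in large-fibre-marker neurons, but under 4-fold. Kcnd3 had 345 and 47.3 in nociceptor-marker neurons of libraries 2 and 3, against 392 and 11.4 in large-fibre-marker neurons. The sodium pump beta subunits Atp1b1 and Atp1b2 were called lower in nociceptor-marker neurons, Atp1b1 at 61.5 and 297 in nociceptor-marker neurons of libraries 2 and 3, against 832 and 1608 in large-fibre-marker neurons.

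Glia-like cells, which can hold Schwann cells and satellite glia, were set against fibroblast-like cells in all 4 libraries. Of 46 measured Kcn genes, 7 were called higher in glia-like cells (3.33% of all genes) and 2 lower (2.88%). In library 1, 18 of 34 measured Kcn genes gave no ratio because of the floor and could not be called. Kcna2, a Kv subunit of the juxtaparanode, had 23.5, 34.9, 87.6 and 36 in glia-like cells of libraries 1 to 4, against 0.141, 3.88, 4.61 and 2.38 in fibroblast-like cells. Kcna1, its usual partner, had 30.5, 14, 35.7 and 9.64, against 0.352, 2.12, 1.28 and 1.36. Kcnh8 had 35.2, 6.79, 17.4 and 37.9, against 0.0703, 0 UMIs, 0 UMIs and 1.43. All 3 genes were higher in glia-like cells of each library.

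The other genes higher in glia-like cells were Kcnn4, measured in 3 libraries, Kcnn3, measured in 2, and Kcnj11, the pore of the neuronal and pancreatic ATP-sensitive channel, and Kcnk3, measured in 1 each. Kcnk3 had 5.07 in glia-like cells and 0 UMIs in fibroblast-like cells of library 2, the library where it was measured. With each cell weighted equally, its median log2 ratio over measured libraries was -0.14. A side under the floor was never allowed to come out higher, so library 2 could not give a negative ratio. Another library thus entered that median. Lower in glia-like cells were the leak channels Kcnk6 and Kcnk2. Kcnk2 had 0 UMIs, 1.33, 1.66 and 0.098 in glia-like cells of libraries 1 to 4, against 31.6, 27.5, 13.6 and 26.1 in fibroblast-like cells. Kcnk6 had 4.69, 1.48, 1.24 (3 UMIs) and 1.18, against 35.6, 19.7, 17.4 and 27.6. For both leak genes each glia-like level was below all 4 fibroblast-like levels. With cells weighted equally 3 genes were called higher, and with cells thinned to 1000 UMIs 2.

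Kcnj10 was scarce, with 77 UMIs in all barcodes of the 4 libraries. Glia-like cells held 2, 26, 1 and 43 of them in libraries 1 to 4, and all other classes together held 0, 1, 1 and 0. As levels, glia-like cells had 2.35, 2.03, 0.415 and 0.843 UMIs per 1000000, and the other classes 0, 0.0175, 0.0122 and 0. In library 2 the interval of the log2 ratio ran from 4.25 to 12.21. In library 4, with 0 UMIs elsewhere, the log2 ratio was 2.53 with the floor of 3 UMIs over the other classes, and its exact interval started at 2.17. Libraries 1 and 3 hold too few UMIs for a ratio. Of the 26 glia-like UMIs in library 2, 20 were in satellite-marker glia, which held 8982596 of the 12821932 UMIs of the class, and 0 in myelin-marker glia, which held 721668. The interval of their log2 ratio started at -1.33, so a difference between these glia was not detectable at this depth. In library 4, myelin-marker glia had 28 UMIs (1.27 per 1000000) and other glia 15 (0.519). Barcodes with under 500 genes held 0 Kcnj10 UMIs.

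Myelin-marker glia, glia-like cells that carried at least 4 of 8 myelin genes, differed from the other glia in few Kcn genes. Of 32 measured, 3 were called higher (0.502% of all genes) and 0 lower (0.411%). Kcna1 had 89.5, 187, 69.6 and 21.8 in myelin-marker glia of libraries 1 to 4, against 0 UMIs, 3.72, 1.66 (2 UMIs) and 0.311 in other glia (log2 5.65, 5.16 to 6.17 in library 2, and 6.13, 5.20 to 7.27 in library 4). Kcna2 had 58.5, 227, 149 and 72.6, against 5.34 (3 UMIs), 23.5, 25.8 and 8.03 (log2 3.28, 2.53 and 3.18 in libraries 2 to 4). Both genes were higher in myelin-marker glia of all 4 libraries, and Kcna2 in library 1 fell short of 20 UMIs. The other called gene, Kcnq1, a slow delayed rectifier, was measured in library 4 alone, at 1.81 in myelin-marker glia and 0.173 in other glia.

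Neuron markers were detected in these glia-like cells. All 8 neuron markers had UMIs in myelin-marker glia of libraries 2 to 4, at a summed 2385, 1306 and 121 UMIs per 1000000, and 3 of 8 in library 1, at 13.8. Neuron-like cells had 14044 and 18191 in libraries 2 and 3. In library 2 there were 27.3 (12.3 to 75.6) Kcna2 UMIs for each Kcna6 UMI in myelin-marker glia and 0.965 (0.931 to 1) in neuron-like cells. In library 3 the ratio was 30 (13.5 to 82.8) in myelin-marker glia and 1.1 (1.06 to 1.14) in neuron-like cells. Kcna1 to Kcna6 stood at 22.5 in myelin-marker glia and 0.128 in neuron-like cells of library 2, and at 14 and 0.168 in library 3. The proportions of the Kcna genes thus differed between the 2 kinds of cell, with 6 Kcna6 UMIs in myelin-marker glia of each of these libraries. The part of neuron RNA in the Kcna levels of myelin-marker glia was not tested.

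Kcnk1, a weakly conducting leak channel, had 120.4, 215, 42.2 and 6.2 in myelin-marker glia of libraries 1 to 4, against 1.78 (1 UMI), 0.909, 1.66 (2 UMIs) and 2.66 in other glia. The difference was large in libraries 1 to 3 and under 4-fold in library 4, so the gene was not called. Kcnn4 ran the other way, with 0 UMIs, 2.77 (2 UMIs), 0.828 (1 UMI) and 2.67 in myelin-marker glia, against 21.4, 43.4, 6.65 and 4.43 in other glia, and was not called either.

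**Figure D3:**
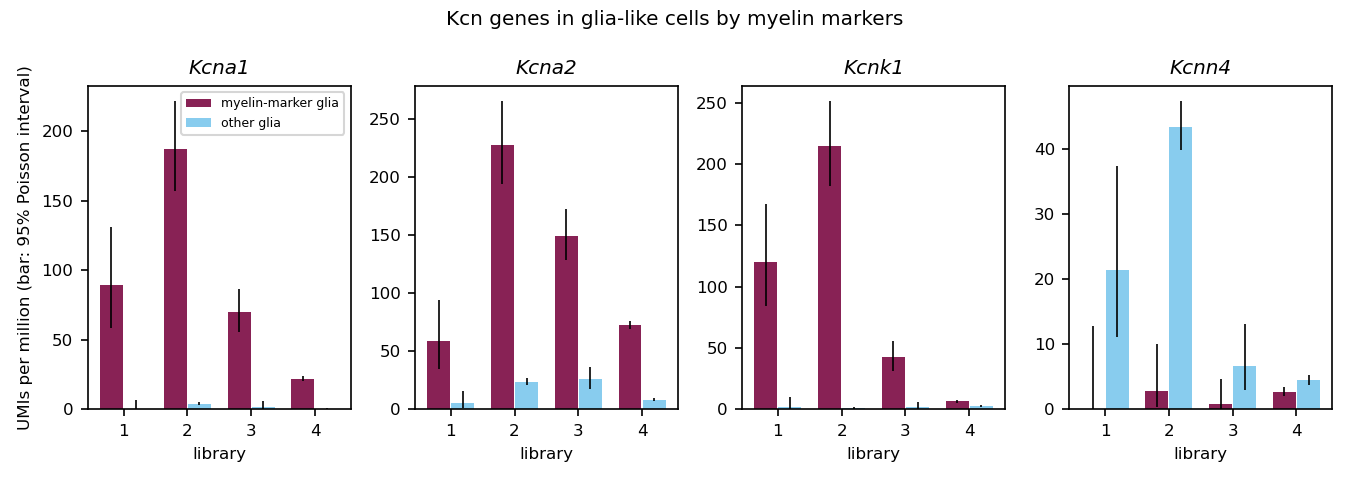
UMIs per 1000000 of Kcna1, Kcna2, Kcnk1 and Kcnn4 in myelin-marker glia and other glia of the 4 libraries, with exact 95% intervals. Kcna1 and Kcna2 are higher in myelin-marker glia of all 4 libraries, and the Kcnk1 difference is smallest in library 4.

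Satellite-marker glia, which carried Fabp7 and at least 3 satellite markers without the myelin set, reached 50 cells in library 2 alone (749 cells). Of 21 measured Kcn genes, 1 was called higher than in myelin-marker glia (4.33% of all genes) and 3 lower (3.17%). Kcnn4 had 45.5 in satellite-marker glia and 2.77 (2 UMIs) in myelin-marker glia, with an interval of the log2 ratio from 2.18 to 7.09. Lower were Kcna1 at 4.01 in satellite-marker glia and 187 in myelin-marker glia, Kcna2 at 26.1 in satellite-marker glia and 227 in myelin-marker glia and Kcnk1 at 0.557 in satellite-marker glia and 215 in myelin-marker glia (log2 -8.59, -10.23 to -7.34). Tyrp1, a melanocyte marker, stood at 2387 in satellite-marker glia and 51.3 in myelin-marker glia. Of the 4 melanocyte markers used, 2 had no UMI in satellite-marker glia, and the part of melanocyte RNA in the result was not tested. With cells thinned to 1000 UMIs 0 genes were called higher, and with classes from Leiden clusters 1 lower. Among the partner genes, Dlg1 was called higher, at 18.3 in satellite-marker glia and 2.77 (2 UMIs) in myelin-marker glia, and the sodium pump beta subunit Atp1b3 lower, at 198 in satellite-marker glia and 829 in myelin-marker glia.

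Of the classes used, mural-like cells had the highest level of Kcnj8, the pore of the vascular ATP-sensitive channel, in the 3 libraries where they reached 50 cells. Kcnj8 had 113, 600.2 and 1116 in mural-like cells of libraries 2 to 4, against 2.49, 2.33 and 16.5 in all other classes together. The log2 ratio was 5.50 (5.10 to 5.89), 8.01 (7.78 to 8.24) and 6.07 (5.96 to 6.19). As a small class they held 82, 768 and 1114 Kcnj8 UMIs in libraries 2 to 4, against 172, 193 and 1168 in the other classes together, so most Kcnj8 UMIs lay outside them in libraries 2 and 4. Its partner Abcc9 had 103, 467 and 845 in the same cells. Inside the class, cells with smooth muscle markers had less Kcnj8 than the others, with 25.9 and 45.3 in smooth-muscle-marker cells of libraries 2 and 3, against 191 and 892 in other mural-like cells (log2 -2.88, -4.07 to -1.88, and -4.30, -5.02 to -3.66). Of 3 Kcn genes measured in that comparison it was the 1 called lower (2.16% of all genes), and 0 were called higher (0.813%).

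Kcnj8 was found in other classes too. Endothelial-like cells had 2.25 (2 UMIs), 34.1, 16.8 and 252 in libraries 1 to 4 and fibroblast-like cells 17.2, 4.58, 3.71 and 37.7. The endothelial-like value of library 4 came from 68 cells with a median of 21857.5 UMIs, against 7333 in mural-like cells of that library. Against endothelial-like cells, mural-like cells were higher in libraries 2 to 4 (log2 1.72, 5.16 and 2.15), but under 4-fold in library 2, so the gene was not called in that comparison. Mural-like cells of library 4 had 438 UMIs per 1000000 of the pericyte marker Rgs5 and endothelial-like cells 47.1, with summed mural markers of 5750 and 901. There were 2.55 (2.28 to 2.85) Kcnj8 UMIs for each Rgs5 UMI in mural-like and 5.36 (4.34 to 6.67) in endothelial-like cells of library 4. In fibroblast-like cells the ratio was 42.6 (24.7 to 80.5) in library 4 and 57.5 (35.7 to 99.2) in library 1. Rgs5 is itself a marker of the mural-like class. For each Abcc9 UMI, mural-like cells of libraries 2 to 4 had 1.09, 1.28 and 1.32 Kcnj8 UMIs. Endothelial-like cells had 1, 0.393 and 1.15. These intervals overlapped in libraries 2 and 4 (in library 4, 1.21 to 1.45 and 1.015 to 1.3) but not in library 3. The Kcnj8 to Rgs5 intervals overlapped in library 3 but not in library 2. The part of mural RNA in the endothelial-like level was not tested beyond these ratios.

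**Figure D4:**
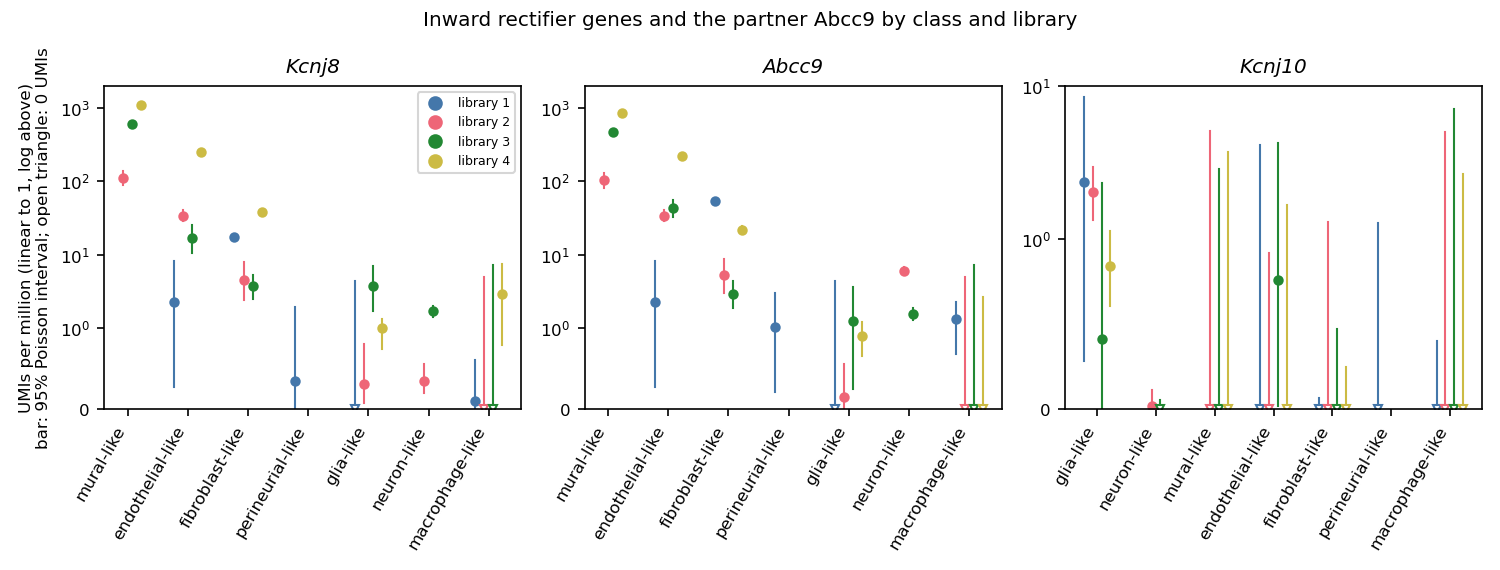
UMIs per 1000000 of Kcnj8, its partner Abcc9 and Kcnj10 by cell class, with a point for each library and exact 95% intervals. Kcnj8 and Abcc9 are highest in mural-like cells of libraries 2 to 4, and Kcnj10 stays below 3 in glia-like cells.

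Set against endothelial-like cells, mural-like cells had 2 of 15 measured Kcn genes called higher (3.13% of all genes) and 0 lower (3.97%). Kcnk3, an acid-sensitive leak channel known from arterial smooth muscle, had 27.5 and 61.7 in mural-like cells of libraries 2 and 3, against 0.996 and 0 UMIs in endothelial-like cells, while mural-like cells of library 4 had 0 UMIs. Inside the mural-like class it had 40.3 and 118 in smooth-muscle-marker cells of libraries 2 and 3, against 15.7 and 32.2 in other mural-like cells. Kcnab1 was called on library 2 alone, at 104 in mural-like cells and 10.5 in endothelial-like cells. Neuron-like cells of that library had 128 and barcodes with under 500 genes 72.7, and the neuron markers summed to 2432 in mural-like and 1310 in endothelial-like cells. There were 6.33 (3.42 to 12.8) Kcnab1 UMIs for each Kcna2 UMI in those mural-like cells and 1.06 (1.02 to 1.1) in neuron-like cells. In library 3 the ratio was 1.4 (0.578 to 3.52) in mural-like and 0.813 (0.785 to 0.842) in neuron-like cells, so there the mural-like interval covers the neuron-like value. With at least 100 UMIs required on a side, 0 genes were called higher. The sodium pump beta subunit Atp1b2 was called higher in mural-like cells, at 429.8, 117 and 165 in libraries 2 to 4, against 25.9, 10.7 and 26.7 in endothelial-like cells.

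Perineurial-like cells of library 1 were examined after their values had been seen. Kcnj13, an inward rectifier known from epithelia such as the choroid plexus, had 262 UMIs per 1000000 (243 to 281), against 1.04 in fibroblast-like, 0.109 (1 UMI) in macrophage-like, 0 UMIs in endothelial-like and 0 UMIs in glia-like cells of that library. Its log2 ratio over fibroblast-like cells was 7.98 (7.59 to 8.39). Barcodes with under 500 genes had 6.31. Leak channels differed in both directions. Among the higher ones, Kcnk5 had 50.2 in perineurial-like and 16 in fibroblast-like cells, Kcnk7 21.5 in perineurial-like and 2.27 in fibroblast-like cells, and Kcnk16, best known from the pancreas, 8.32 in perineurial-like and 0 UMIs in fibroblast-like cells. For Kcnk7 endothelial-like cells had 13.5 (6.97 to 23.6), an interval that overlaps the perineurial-like one (16.5 to 27.5). Lower in perineurial-like cells were Kcnk2, with 13.9 in perineurial-like and 31.6 in fibroblast-like cells (log2 -1.19, -1.68 to -0.74), and Kcnk6, with 21.1 in perineurial-like and 35.6 in fibroblast-like cells (log2 -0.75, -1.15 to -0.39). Also going that way, Kcnj8 had 0.346 (1 UMI) in perineurial-like and 17.2 in fibroblast-like cells, and the BK beta subunit Kcnmb4 0 UMIs in perineurial-like and 12.6 in fibroblast-like cells. The pacemaker channel Hcn4 had 297 in perineurial-like and 1.85 in fibroblast-like cells. No other library had 50 perineurial-like cells, so these levels stand on 1 library.

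**Figure D5:**
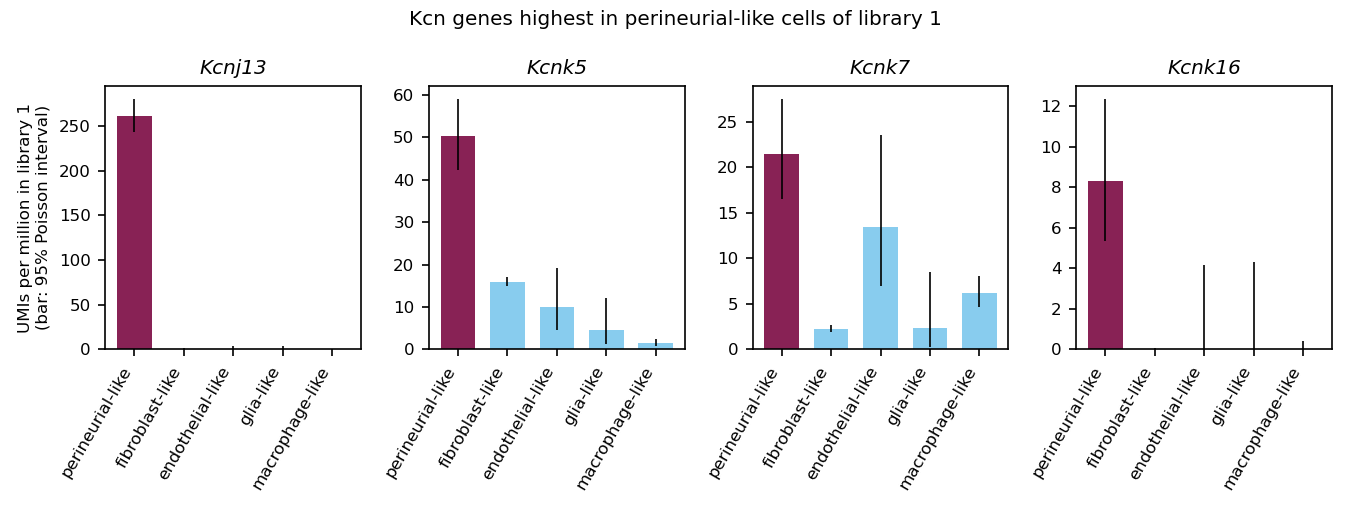
UMIs per 1000000 of Kcnj13, Kcnk5, Kcnk7 and Kcnk16 in perineurial-like cells and other classes of library 1, with exact 95% intervals. Kcnj13 stands at 262 in perineurial-like cells and at 1.04 in fibroblast-like cells.

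Macrophage-like cells, set against fibroblast-like cells, had 8 of 41 measured Kcn genes called higher (5.64% of all genes) and 2 lower (4.31%). Kcng2, a modifier subunit, was highest in macrophage-like cells of all 4 libraries among the classes used, with 16.7, 28.4, 17.4 and 25.3 in libraries 1 to 4, against 0.422, 2.82, 1.41 and 1.23 in fibroblast-like cells. Kcna3, the main Kv channel of lymphocytes and also found in macrophages, had 4.46, 12.2, 13.5 and 12.3, against 0.0879, 0 UMIs, 0 UMIs and 0.136 (2 UMIs). Both genes were higher in macrophage-like cells of each library. Kcnn4 had 23.4 and 46 in libraries 1 and 2, against 1.67 and 2.12.

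The other called genes were measured in library 1, which had 2140 macrophage-like cells. Among leak channels, Kcnk10 had 19.2 in macrophage-like cells and 0.105 in fibroblast-like cells and Kcnk13, also a channel of microglia, 16.9 in macrophage-like cells and 0.141 in fibroblast-like cells. The sodium-activated channel Kcnt2 had 22.5 in macrophage-like cells and 0.651 in fibroblast-like cells, and the regulator Kcne3 8.17 in macrophage-like cells and 0.281 in fibroblast-like cells. Kcnab2, a Kv beta subunit, had 2.4 in macrophage-like cells and 0.0527 (3 UMIs) in fibroblast-like cells. Lower were Kcnma1 with 0 UMIs in macrophage-like cells and 2.27 in fibroblast-like cells and the regulator Kcne2 with 0.436 in macrophage-like cells and 2.55 in fibroblast-like cells. With cells thinned to 1000 UMIs, 5 genes were called higher.

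Endothelial-like cells, set against fibroblast-like cells, had 4 of 39 measured Kcn genes called higher (3.91% of all genes) and 2 lower (2.11%). In library 1, 18 of 32 measured Kcn genes gave no ratio because of the floor and could not be called. Lower were again Kcnk6, at 6.74, 3.24, 1.52 (2 UMIs) and 3.17 in endothelial-like cells of libraries 1 to 4, against 35.6, 19.7, 17.4 and 27.6 in fibroblast-like cells, and Kcnk2, at 3.37 (3 UMIs), 0.747 (3 UMIs), 1.52 (2 UMIs) and 0.905 (2 UMIs), against 31.6, 27.5, 13.6 and 26.1. The higher genes, Kcna3, Kcnj11, Kcnj12 and Kcnn4, were each measured in 1 library on 25 endothelial-like UMIs or fewer, and with cells thinned to 1000 UMIs 0 were called. In library 1, Kcnj12 stood on 3 endothelial-like UMIs (log2 2.94, 0.57 to 4.65) and Kcnn4 on 6 (log2 2.01, 0.53 to 3.19). Both intervals reach below 4-fold, and both genes counted as measured through the fibroblast-like side. The glia-like, macrophage-like and endothelial-like comparisons share the fibroblast-like cells.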

How the data were processed

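Single-cell 3′ RNA libraries were made with the Chromium v3 kit, per the labels' protocols, from rat sciatic nerve and DRG. The deposited values are raw UMI counts per gene and barcode that the authors made with Cell Ranger 3.1.0, per the file headers. Rnor_6.0 is the build, and CASAVA 1.8 and Seurat are further tools, named by the submitters' processing notes.

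The Kcn genes, the lists and the tests were chosen with earlier results of these data known. Barcodes with at least 500 genes and at most 20% mitochondrial UMIs were kept. A class score was the mean over its markers of the level per 10000 UMIs divided by that marker's 99.5th percentile in cells of at least 2000 UMIs, and needed 3 markers with a UMI. The top class was taken where the runner-up had at most 50% of its score; 658 classed cells had a rival between 40 and 50%, and 421 unclassed ones between 50 and 60%. These numbers were set after values had been seen, and 139 of 148 listed markers were used. No doublet caller was run: the 1402 mixed cells were left out, and an alternative dropped the 5% of cells with most UMIs. Subsets needed 4 myelin, 3 satellite, 3 nociceptor, 2 large-fibre or 3 smooth muscle markers.

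UMIs were summed per class and library where a class had 50 cells. Ratios used exact Clopper-Pearson intervals and levels exact Poisson intervals. The named genes are Kcnj8, Kcnj10, those called in every library where measured, and those highest in 1 class throughout; other genes named were chosen after their values were seen. Alternatives were other filters, gates, weights, thresholds and scalings, and Leiden clusters (2000 variable genes, 30 components, 15 neighbours, resolution 0.8). Ratio code was tested on simulated data. The work used leidenalg 0.10.2, igraph 0.11.9, scikit-learn 1.9.0, scipy 1.17.1, pandas 2.3.3, numpy 2.4.6 and matplotlib 3.10.9 under Python 3.11.15. Some genes are counted in the totals but are not reported here by name or drawn.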

Additional observations from a re-analysis of the deposited data

Results flagged for a closer look

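Kcn UMIs also occurred in barcodes that no comparison used, above the level that 3 UMIs would give. Barcodes with under 500 genes held 89.6, 698, 179 and 59.8 Kcn UMIs per 1000000 in libraries 1 to 4 (71, 720, 1072 and 222 UMIs in 589, 1171, 3371 and 1750 barcodes). Barcodes over 20% mitochondrial UMIs held 308, 2560, 1365 and 264 (127, 23894, 6883 and 266 UMIs in 125, 490, 412 and 361 barcodes). Cells that carried markers of more than 1 class held 185, 416, 295 and 231 (396, 555, 670 and 1291 UMIs in 212, 347, 410 and 433 cells). In libraries 2 and 3 the barcodes over 20% mitochondrial UMIs stood at 2560 and 1365, against 1805 and 933 in the neuron-like cells that were kept.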

How the results depend on the processing

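No paired analysis was possible because each labelled group has 1 library and the barcode numbers are tied to no label. With 11 other settings there were 685 values of the 69 gene calls, each a median over measured libraries. Of these, 652 kept their direction and side of the threshold, 32 kept the direction but fell short, and 1 reversed. At 2-fold (69 values) and from 100 UMIs (52 values) the same sums were read again, so keeping both was fixed beforehand. The median does not show whether a gene was still called in every library. The reversed value was Kcnk3 in glia-like over fibroblast-like cells, at a log2 ratio of -0.143 with equal cell weights. A library where it was not measured in the main setting entered that median. Thinning each cell to 1000 UMIs leaves fewer UMIs to call from. For neuron-like over glia-like cells, higher calls, 23, became 14 with at most 10% mitochondrial UMIs, and lower calls, 5, became 1 when thinned, 3 from 100 UMIs and 8 at 2-fold. For glia-like over fibroblast-like cells, higher calls, 7, became 3 with equal cell weights, 2 when thinned and 3 from 5 UMIs, and lower calls, 2, became 0 when thinned and 4 at 2-fold. For mural-like over endothelial-like cells, higher calls, 2, became 4 with equal cell weights, 4 from 5 UMIs, 0 from 100 UMIs and 4 at 2-fold, and lower calls, 0, became 1 with Leiden classes, 1 with equal cell weights and 1 at 2-fold. For endothelial-like over fibroblast-like cells, higher calls, 4, became 1 with at most 10% mitochondrial UMIs, 2 without the deepest 5% of cells, 1 with equal cell weights, 0 when thinned, 2 from 5 UMIs and 1 from 100 UMIs, and lower calls, 2, became 0 when thinned. For macrophage-like over fibroblast-like cells, higher calls, 8, became 5 when thinned and 5 from 100 UMIs, and lower calls, 2, became 4 when thinned, 0 from 5 UMIs, 8 from 100 UMIs and 5 at 2-fold. For myelin-marker glia over other glia, higher calls, 3, became 5 from 5 UMIs and 6 at 2-fold. For satellite-marker glia over myelin-marker glia, higher calls, 1, became 0 when thinned and 2 at 2-fold, and lower calls, 3, became 1 with Leiden classes, 6 from 5 UMIs and 6 at 2-fold. For nociceptor-marker over large-fibre-marker neurons, higher calls, 1, became 2 with at most 10% mitochondrial UMIs, 8 with at least 1000 genes, 8 with 1 more marker, 2 without the deepest 5% of cells, 0 with equal cell weights, 0 when thinned, 3 from 100 UMIs and 6 at 2-fold, and lower calls, 5, became 2 without the deepest 5% of cells, 0 when thinned, 1 from 100 UMIs and 8 at 2-fold. For smooth-muscle-marker over other mural-like cells, higher calls, 0, became 1 with Leiden classes, 1 without the deepest 5% of cells, 1 with equal cell weights, 1 at 2-fold and 1 with median scaling. The median log2 ratio of Kcnj8 in mural-like cells over all other classes, 6.07, became 5.39 with at most 10% mitochondrial UMIs, 5.90 with Leiden classes, 6.29 without the deepest 5% of cells and 6.21 when thinned. In 100000 UMIs drawn in place of 1000000, the expected number of Kcn genes was 13.95 for glia-like, library 2, 31.61 for neuron-like, library 2, 13.65 for glia-like, library 3 and 27.83 for neuron-like, library 3. The satellite-marker comparison could not be made at 10% mitochondrial UMIs, nor the smooth-muscle one with 1 more marker. The cause of the other changes was not tested. Depth limits scarce genes most: Kcnj10 had 1 or 2 glia-like UMIs in libraries 1 and 3.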

Other observations

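Further Kcn genes of glia-like cells were not called against fibroblast-like cells. Kcnmb4, a BK beta subunit, had 16.4, 11.9, 19.9 and 47.6 UMIs per 1000000 in glia-like cells of libraries 1 to 4, against 12.6, 13, 19.4 and 12.2 in fibroblast-like cells. Kcnk5, an acid-sensitive leak channel, had 4.69, 1.48, 27.8 and 24.6 in glia-like cells, against 16, 16.9, 10.5 and 12.1 in fibroblast-like cells. Kcnj9, a subunit of G-protein-gated inward rectifiers, had 2.35 (2 UMIs), 0.858, 1.24 (3 UMIs) and 1.92 in glia-like cells, against 0.633, 0 UMIs, 0.512 and 0.409. Its difference passed 4-fold in library 4. In library 1 the glia-like side was under 3 UMIs and gave no ratio, so Kcnj9 could not be called. These genes were chosen after their values were seen.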
